A study of Homo sapiens with 8 samples.

Results

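The D cyclin genes CCND2, CCND3 and CCND1 and the genes of their kinase partners CDK6 and CDK4 were examined through 5 fixed windows of the hg19 genome, each drawn around the gene it is named for. Members were all peaks of the 6 deposited ChIP-seq peak lists that overlapped a window by at least 1 bp, and they numbered 277 of 224923 peaks. The CCND2 window (chr12:4250000-4450000, 200 kb) held 111 of them, the CCND3 window (chr6:41870000-42050000, 180 kb) 36, and the CCND1 window (chr11:69400000-69500000, 100 kb) 20. The CDK6 window (chr7:92200000-92500000, 300 kb) held 89 and the CDK4 window (chr12:58120000-58170000, 50 kb) 21. The windows were proposed with results of these data in view, so a high density in a window is a description.

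The study mapped NIPBL, MED1 and SMC1A in untreated GM12878 cells, a lymphoblastoid line made by transforming the B lymphocytes of a single donor with Epstein-Barr virus. Each protein was immunoprecipitated from crosslinked chromatin in 2 replicate libraries, and 2 whole cell extract libraries, taken without an antibody, were pooled as the control of every list. Whether replicates are separate cultures is not given in the labels, and their spread may thus be technical only. No transcript was measured, so the peaks say where the proteins were found and nothing of how much the genes were expressed.

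D cyclins are made when a cell receives growth signals, and each binds CDK4 or CDK6 to form a kinase that phosphorylates the retinoblastoma protein and so releases E2F transcription factors for entry into DNA synthesis. In lymphoid cells CCND2, CCND3 and CDK6 are the usual members in use, whereas CCND1 is normally silent in B cells and is activated by translocation in mantle cell lymphoma. NIPBL loads cohesin, the ring complex that folds DNA into loops and of which SMC1A is a subunit. MED1 is a subunit of Mediator, which connects transcription factors bound at enhancers to RNA polymerase II. Wide stretches of dense MED1 signal are a known feature of strong enhancers.

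The stretches just before the start sites are shown for the 3 genes whose promoters could be matched, CCND3, CDK6 and CDK4, to let the reader see how unlike they are. Promoters of CCND2 and CCND1 are named only. Sequences are the 250 bases before the RefSeq start, on the strand of the gene, from GRCh38.p14. Capitals mark an E-box (CACGTG, bound by MYC and related factors) or a GC box (GGGCGG, bound by SP1 and related factors) on either strand, and the motifs do not overlap each other.
CDK4 (chr12:57752311-57752560, minus strand): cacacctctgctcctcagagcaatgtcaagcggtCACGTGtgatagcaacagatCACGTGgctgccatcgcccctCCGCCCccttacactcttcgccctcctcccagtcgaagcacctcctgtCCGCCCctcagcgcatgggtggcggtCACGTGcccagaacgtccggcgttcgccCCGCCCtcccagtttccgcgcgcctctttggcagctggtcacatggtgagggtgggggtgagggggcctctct
CDK6 (chr7:92836574-92836823, minus strand): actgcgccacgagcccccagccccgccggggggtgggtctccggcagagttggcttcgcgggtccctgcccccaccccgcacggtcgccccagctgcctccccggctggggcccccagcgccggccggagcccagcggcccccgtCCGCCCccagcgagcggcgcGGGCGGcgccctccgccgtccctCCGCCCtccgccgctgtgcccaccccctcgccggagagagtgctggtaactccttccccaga
CCND3 (chr6:42048689-42048938, minus strand): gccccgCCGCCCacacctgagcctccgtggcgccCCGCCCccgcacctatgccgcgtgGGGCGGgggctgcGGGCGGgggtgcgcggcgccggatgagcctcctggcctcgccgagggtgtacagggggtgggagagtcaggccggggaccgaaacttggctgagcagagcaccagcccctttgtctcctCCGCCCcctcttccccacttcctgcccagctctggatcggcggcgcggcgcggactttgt
The CDK4 stretch held 3 E-boxes and 3 GC boxes. The CDK6 stretch held 3 GC boxes and no E-box, and the CCND3 stretch 5 GC boxes and no E-box. Of 35116 RefSeq promoter stretches of the same length, 6.34% held an E-box and 42.6% a GC box. CDK6 has a further listed start with neither motif, and CCND3 has further starts with 2 and 0 GC boxes. A match is a match of letters, not a bound site. The peak positions below are on hg19, for which no annotation was used here, so no peak is assigned to a promoter, exon or intron, or placed on these sequences. The genes next to the members in the RefSeq order are PARP11 and TIGAR for CCND2, BYSL and TAF8 for CCND3, MYEOV and LTO1 for CCND1, FAM133B and SAMD9 for CDK6, and TSPAN31 and MARCHF9 for CDK4. Without an hg19 annotation it cannot be said which neighbours lie inside the windows. A peak in a window is thus not assigned to the gene the window is named for.

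The lists held 21422 and 15357 NIPBL peaks, 18131 and 45046 MED1 peaks and 56510 and 68228 SMC1A peaks on chromosomes 1 to 22 and X, for replicates 1 and 2 of each protein. Their density was 0.706 and 0.506 peaks per 100 kb for NIPBL, 0.598 and 1.49 for MED1 and 1.86 and 2.25 for SMC1A. Read totals were not used here. The lowest local control value solved from the peaks of each list was taken as a rough stand-in for depth. Relative to the list where it was highest, it was 0.965 and 0.820 for NIPBL, 1.00 and 0.755 for MED1 and 0.752 and 0.743 for SMC1A. It is not a count of reads. The MED1 replicates stood apart most: 99.0% of replicate 1 peaks overlapped replicate 2, and 33.5% of replicate 2 peaks overlapped replicate 1. Results that rest on the MED1 replicates are therefore given for each.

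Peak density set the CCND2 window apart from the other D cyclins in every NIPBL and MED1 library. The CCND2 window held 17 and 14 NIPBL peaks, 16 and 18 MED1 peaks, and 19 and 27 SMC1A peaks. This is 8.5 and 7 NIPBL peaks, 8 and 9 MED1 peaks and 9.5 and 13.5 SMC1A peaks per 100 kb. The CCND3 window had 2 and 2 NIPBL peaks, 3 and 11 MED1 peaks and 9 and 9 SMC1A peaks. The CCND1 window had 1 and 0 NIPBL peaks, 0 and 4 MED1 peaks and 7 and 8 SMC1A peaks, so that at CCND1 SMC1A was found in both libraries and NIPBL and MED1 in 1 library each. Among the kinases, the CDK6 window had 20 and 10 NIPBL peaks, 9 and 19 MED1 peaks and 14 and 17 SMC1A peaks. The CDK4 window, the smallest, had 1 and 3 NIPBL peaks, 2 and 6 MED1 peaks and 5 and 4 SMC1A peaks. All 5 windows were denser than the chromosomes as a whole in both SMC1A libraries, in MED1 replicate 2 and in NIPBL replicate 1. In NIPBL replicate 2 and MED1 replicate 1 the CCND1 window, with no peak, was the exception.

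**Figure D1:**
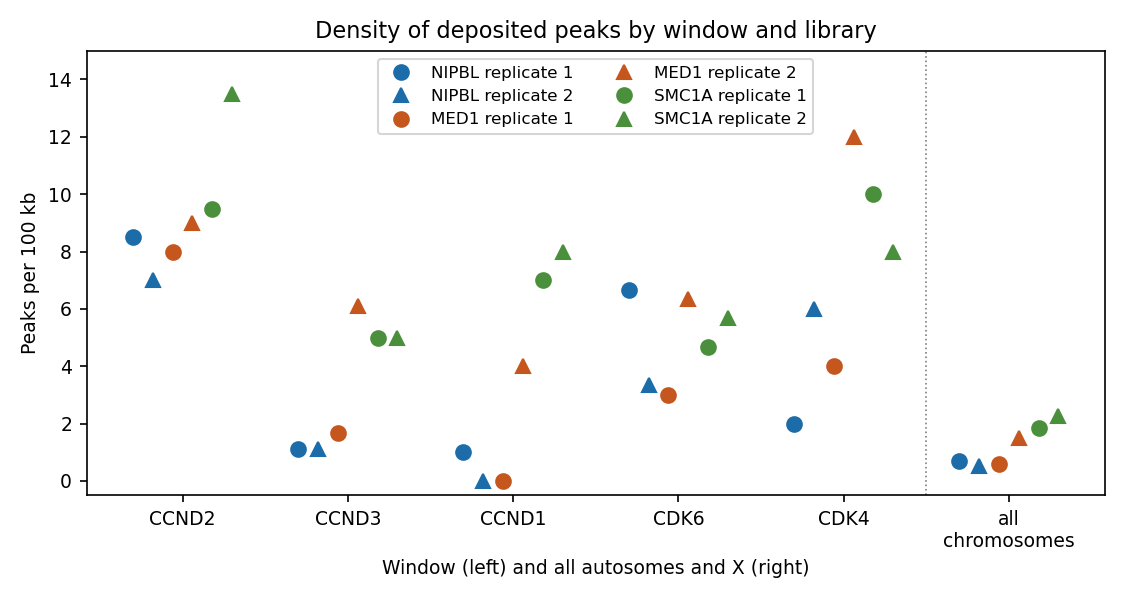
Peaks per 100 kb (vertical axis) in each window and, at the far right, on chromosomes 1 to 22 and X, with 1 point per library and no mean or error bar drawn. NIPBL reached 8.5 and 7 peaks per 100 kb at CCND2 and 1 and 0 at CCND1, while SMC1A was at 7 and 8 at CCND1.

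In what follows, peaks of a protein that overlap between its replicates are joined into a region, and only regions found in both replicates are counted. The windows held 24 of 11635 NIPBL regions, 23 of 15007 MED1 regions and 42 of 51020 SMC1A regions. Fold enrichment is the authors' ratio of fragment pileup over local control at a peak's summit. Pileup is the number of fragments stacked on the summit, as recovered from the authors' fold enrichment and p-value. Strength is the percentile that the fold enrichment reaches within its list, averaged over replicates 1 and 2, so that 100 is the top. Each window was also set beside all stretches of its own width laid end to end along the chromosomes, which include stretches that hold no peak of any list.

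CCND2 encodes a D cyclin that is usually in use in lymphoid cells. Its window held 12 NIPBL regions, and 0.494% of 15177 stretches of 200 kb held at least as many. It held 10 MED1 regions (1.41% of stretches had at least as many) and 16 SMC1A regions (1.15%). The NIPBL regions lay in 2 dense groups with a lone region between them. The left group held 5 regions over 11739 bp (chr12:4251766-4263504), and its sixth region lay 4317 bp outside the left edge of the window. The right group held 6 regions over 8293 bp (chr12:4378099-4386391). When NIPBL regions at most 12500 bp apart were joined, 1.92% of 7439 groups had at least 6 regions. Lone regions count as groups here, and they rank from 2214 down by number of regions. Counted by region, 13.7% of all 11635 NIPBL regions lay in groups of at least 5.

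The strongest NIPBL region of the window opened the right group, at chr12:4378099-4379140. NIPBL fold enrichment there was 7.76 and 9.14, from pileups of 47 and 55 fragments, and its strength of 97.7 ranked 328 of 11635. SMC1A stood at 13.4 and 16.3 fold in the same region and MED1 at 8.60 and 17.0 fold. The summits of all 6 libraries lay between positions 4378612 and 4378675. The MED1 replicate 2 peak that covers the region was 9025 bp wide and had its single summit here, so the other NIPBL regions under it carry the same MED1 replicate 2 value.

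That MED1 region, chr12:4377570-4386594, was the broadest MED1 region of the 5 windows and ranked 38 by width among all 15007, of which 0.253% were at least as broad. It covered all 6 NIPBL regions of the right group and 5 SMC1A regions. MED1 replicate 1 marked the same stretch with 5 separate peaks, so its breadth as a single peak rests on replicate 2. MED1 peaks covered 5.54% of the CCND2 window in replicate 1 and 11.2% in replicate 2, while NIPBL peaks covered 4.11% and 3.44%.

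At the right end of the group lay the strongest SMC1A region of the window, chr12:4385723-4386582. SMC1A reached 22.3 and 27.1 fold there, from pileups of 168 and 190 fragments, and NIPBL 4.98 and 5.00 fold. MED1 replicate 1 was at 3.88 fold in this region, against 8.60 fold at the strongest NIPBL region. Between them a MED1 replicate 1 peak 3763 bp wide had 7.73 fold, and the NIPBL regions that overlapped it share that value. The NIPBL region chr12:4383973-4384498 had no MED1 replicate 1 peak. The MED1 region of greatest strength in the window was in the left group, at chr12:4260870-4263623, with 8.55 and 21.8 fold from pileups of 61 and 128 fragments. NIPBL at that place had 6.92 and 5.18 fold, its second strongest region in the window, and SMC1A had 4.72 and 5.96 fold. The highest MED1 peak of replicate 2 thus lay in the left group. In MED1 replicate 1 the groups were nearly level, at 8.55 fold on the left and 8.60 fold on the right. Pileup in replicate 1 had the other order, with 61 fragments on the left and 56 on the right. The highest SMC1A peaks lay in the right group.

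**Figure D2:**
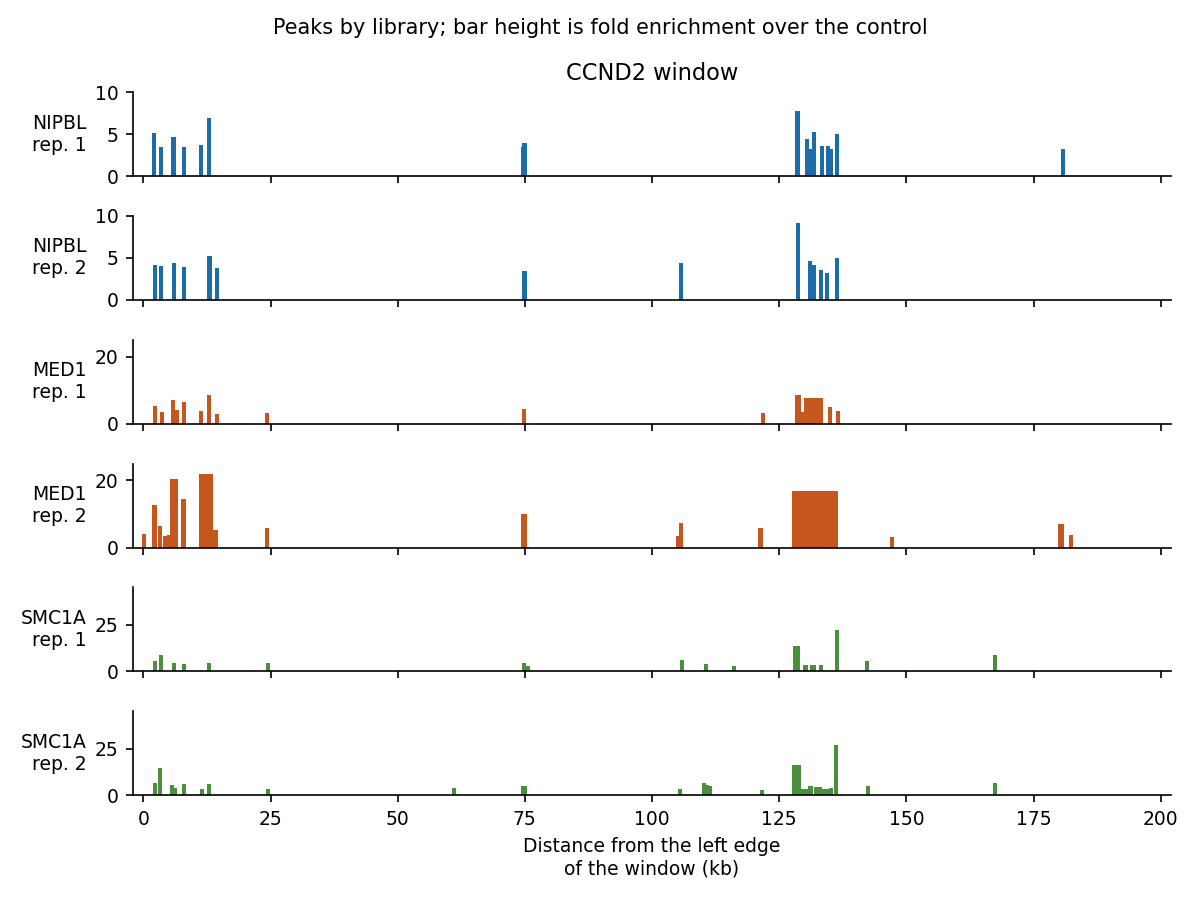
Peaks of the 6 libraries across the CCND2 window, 1 row per library, by distance from the left edge (horizontal axis, kb) and fold enrichment over the control (vertical axis, scaled alike for the replicates of a protein). Bars stand for single peaks, and narrow ones are drawn wider than they are. NIPBL peaks fall mainly into 2 groups, and MED1 replicate 2 spans the right group with a peak 9025 bp wide.

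CCND3 encodes the D cyclin that germinal centre B cells and developing lymphocytes depend on. Its window held a single NIPBL region, chr6:41888715-41889173, with 2.61 and 2.76 fold from pileups of 30 and 23 fragments. At a strength of 3.95 it was among the weakest NIPBL regions of the data, at rank 11562 of 11635. MED1 stood at 3.29 and 7.01 fold there and SMC1A at 3.94 and 4.13 fold. At least 1 NIPBL region was found in 26.6% of stretches of 180 kb.

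MED1 had 3 regions in the CCND3 window, and 11.8% of stretches had at least as many. The strongest, chr6:42017949-42018745, had 3.47 and 7.14 fold, with a NIPBL peak of 2.98 fold in replicate 2 alone and no SMC1A peak. The broadest was 1015 bp wide (chr6:41888430-41889444) and enclosed the NIPBL region. SMC1A had 7 regions (12.7% of stretches had at least as many), and the 2 highest of them were found without NIPBL or MED1. The strongest SMC1A region of all 5 windows was chr6:42043192-42043704, with 34.2 and 40.0 fold from pileups of 146 and 169 fragments, a strength of 98.4, and no peak in any NIPBL or MED1 library. The region across the left edge, chr6:41869873-41870281, also lacked NIPBL and MED1 peaks and had SMC1A at 24.0 and 27.8 fold.

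CCND1 encodes the D cyclin of epithelial and many other non-lymphoid cells. Its window held no NIPBL and no MED1 region, where at least 1 NIPBL region was found in 18.0% and at least 1 MED1 region in 22.0% of stretches of 100 kb. It held 5 SMC1A regions, a count that 9.04% of stretches reached. The strongest, chr11:69457376-69458472, had SMC1A at 30.0 and 33.7 fold from pileups of 170 and 189 fragments. A NIPBL peak of 5.42 fold (26 fragments) overlapped it in replicate 1 and none in replicate 2, and MED1 peaks of up to 4.04 fold overlapped it in replicate 2 and none in replicate 1. A weak signal of NIPBL or MED1 in the libraries without a peak is below what could be detected, since the lowest pileup called in any list was 7 to 11 fragments and more were needed where the control was higher. The strongest single MED1 peak in the window had 6.48 fold, in replicate 2.

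**Figure D3:**
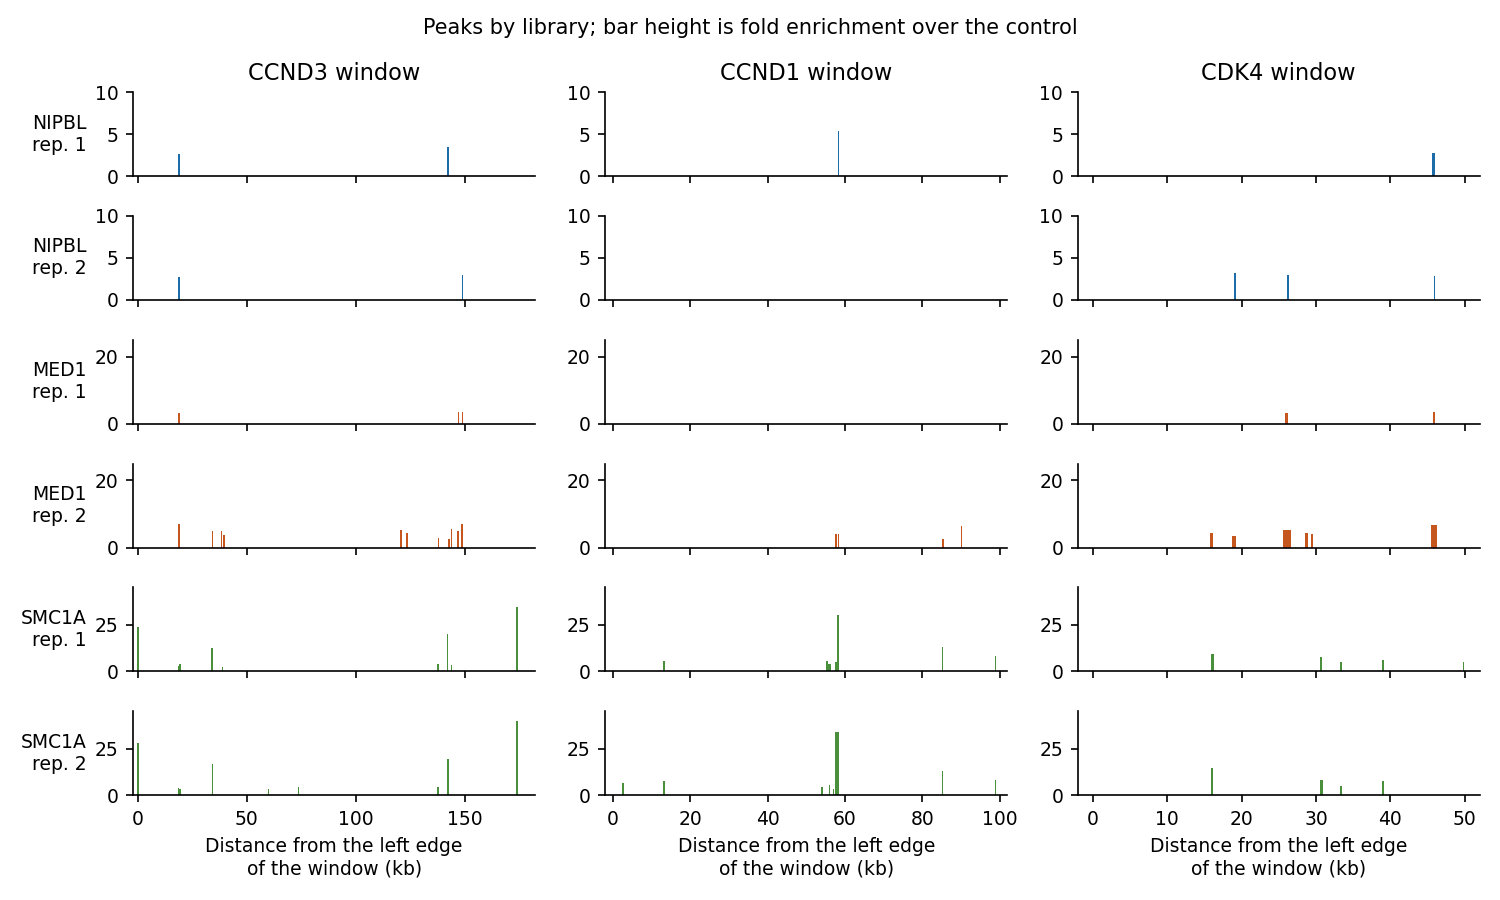
Peaks across the CCND3, CCND1 and CDK4 windows (columns), 1 row per library, by distance from the left edge (horizontal axis, kb) and fold enrichment over the control (vertical axis, same scale for a protein throughout). Bars stand for single peaks, and narrow ones in the CCND3 and CCND1 windows are drawn wider than they are. SMC1A stands at 34.2 and 40.0 fold near the right edge of the CCND3 window and at 30.0 and 33.7 fold in the CCND1 window, where MED1 replicate 1 and NIPBL replicate 2 have no peak.

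CDK6 encodes the D cyclin kinase that prevails in blood cells. Its window held 10 NIPBL regions, and 1.88% of 10121 stretches of 300 kb held at least as many. MED1 had 8 regions (4.94% of stretches) and SMC1A 10 (15.7% of stretches). The NIPBL regions formed a group of 5 over 21355 bp (chr7:92250498-92271852), a lone region, and 2 groups of 2. Among all groups, lone regions included, 3.29% had at least 5 regions, and 13.7% of all NIPBL regions lay in such groups.

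The strongest NIPBL region of the CDK6 window lay in the group of 5, at chr7:92263973-92264617, with 7.84 and 7.74 fold from pileups of 56 and 48 fragments. MED1 was at 4.85 and 8.28 fold there, and SMC1A had a peak of 4.07 fold in replicate 1 and none in replicate 2. Its strength of 96.8 ranked 443 of 11635. The pair at chr7:92438622-92443682 was nearly as strong, with NIPBL at 6.90 and 6.75 fold in its left region and 7.09 and 6.71 fold in its right. These were the 2 NIPBL regions of the window found with both partners. MED1 there had 4.98 and 12.1 fold on the left and 4.41 and 9.25 fold on the right, and SMC1A 3.77 and 6.15 fold on the left and 4.47 and 5.02 fold on the right.

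NIPBL in the CDK6 window was stronger at the 5 regions with a MED1 region than at the 5 without. Strength was 72.3 to 96.8 with MED1 and 19.8 to 66.5 without. The same split over all NIPBL regions is not given here, so it cannot be called particular to this window. This split rests on the rule for joining MED1 replicates, since 4 of the 5 regions without MED1 overlapped a peak of replicate 2. The weakest of the 5 with MED1, chr7:92261448-92261826, itself overlapped no MED1 replicate 1 peak. It was counted because the replicate 2 peak over it was joined to a replicate 1 peak nearby. Peaks of both MED1 libraries overlapped 4 of the 10 NIPBL regions. Split by MED1 replicate 2 peaks, an alternative chosen after seeing the data, 9 regions with a peak had strengths of 19.8 to 96.8 and the 1 without had 52.1. Regions of a group lie close together and no test was made. In the 4 NIPBL regions with SMC1A and no MED1 region, SMC1A peaks had 17.4 to 22.5 fold in replicate 1 and 20.2 to 24.1 fold in replicate 2, whereas in the pair with both partners they had 3.77 and 4.47 fold in replicate 1 and 6.15 and 5.02 fold in replicate 2. The highest was chr7:92320716-92321319, with SMC1A at 22.5 and 24.1 fold, NIPBL at 3.56 and 4.62 fold and no MED1 peak in either replicate. The remaining 3 of those 4 NIPBL regions overlapped MED1 peaks of 4.52 to 6.71 fold in replicate 2 alone, so their call as lacking MED1 rests on replicate 1. These 4 NIPBL regions overlapped 3 SMC1A regions, because 2 of them lay in the same one.

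The MED1 region of greatest strength in the CDK6 window stood without NIPBL, at chr7:92219149-92219918, with 6.24 and 8.59 fold and SMC1A at 4.78 and 4.69 fold. The broadest MED1 region, chr7:92464164-92466524, was 2361 bp wide with 3.27 and 5.13 fold and no NIPBL peak. It was narrower than the 9025 bp of the CCND2 window, and no MED1 region of the CDK6 window overlapped more than 1 NIPBL region.

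**Figure D4:**
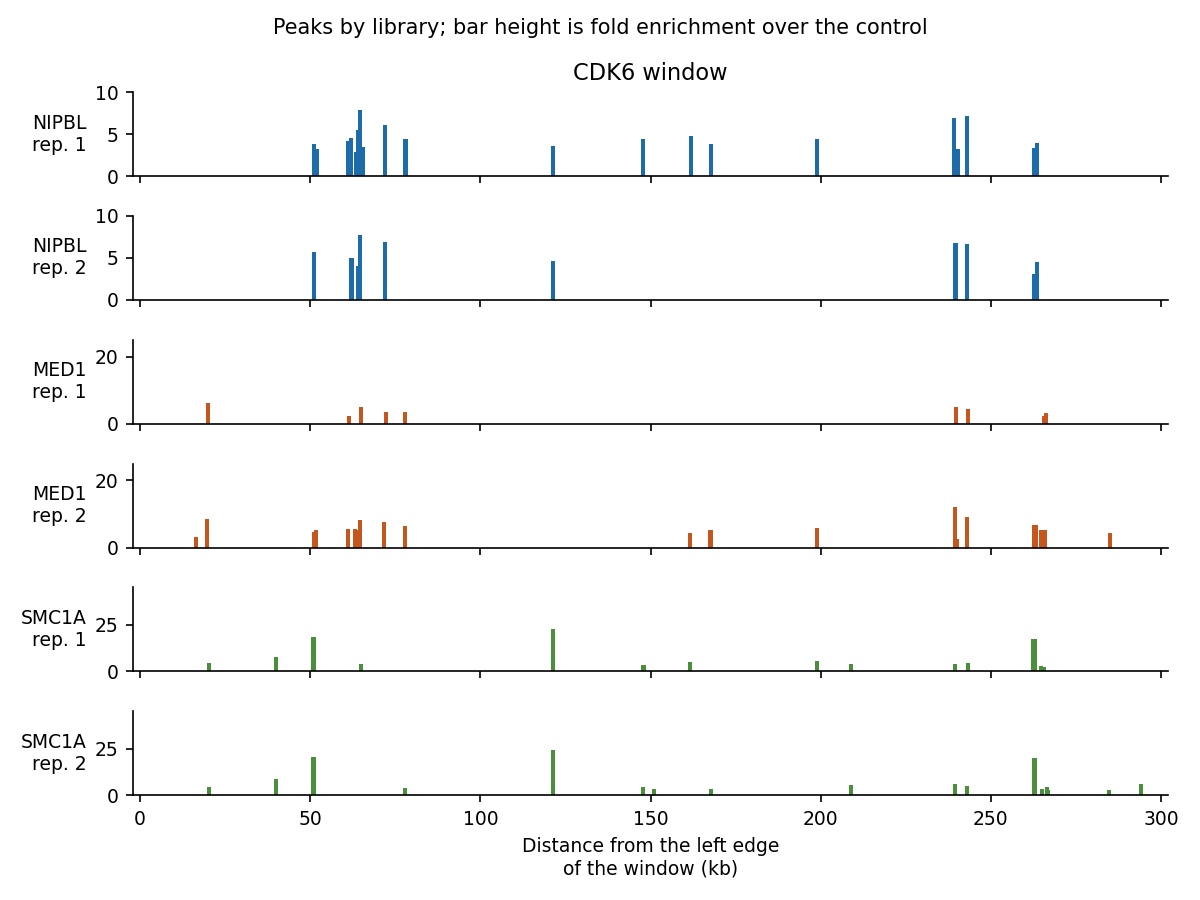
Peaks of the 6 libraries across the CDK6 window, 1 row per library, by distance from the left edge (horizontal axis, kb) and fold enrichment over the control (vertical axis, scaled alike for the replicates of a protein). Bars stand for single peaks, and narrow ones are drawn wider than they are. The highest SMC1A peaks, at 22.5 and 24.1 fold, have low NIPBL peaks of 3.56 and 4.62 fold and no MED1 peak at the same place.

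CDK4 encodes the more widely expressed kinase partner of the D cyclins. Its window held 1 NIPBL region, chr12:58165613-58166026, with 2.72 and 2.88 fold from pileups of 28 and 24 fragments and a strength of 6.16. At least 1 NIPBL region was found in 11.1% of stretches of 50 kb. MED1 was at 3.38 and 6.71 fold there, in its strongest region of the window, and SMC1A had no peak. MED1 had 2 regions (5.54% of stretches), and the broader one, chr12:58145575-58146594, was 1020 bp wide. SMC1A had 4 regions, a count that 4.34% of stretches reached, and none overlapped a NIPBL region. The strongest, chr12:58135885-58136241, had SMC1A at 9.17 and 14.5 fold, the lowest maximum of SMC1A among the 5 windows.

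Over the 5 windows together, NIPBL was usually found with its partners. MED1 regions overlapped 19 of the 24 (79.2%), with an exact 95% interval of 57.8 to 92.9, beside 70.2% of all NIPBL regions. SMC1A regions overlapped 18 (75.0%, interval 53.3 to 90.2), beside 62.4% of all. Both partners were found at 14 of 24, beside 47.8% of all NIPBL regions. MED1 alone was found at 5 (22.4% of all), SMC1A alone at 4 (14.6% of all) and neither at 1 (15.2% of all). A peak in all 6 libraries marked 14 of the 24 regions, against 47.1% of all. The intervals cover counting error only and treat the 24 regions as independent, which neighbouring regions are not. The shares over all NIPBL regions lie inside the intervals, which is a description and not a test.

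The windows contributed unequally to these shares. In the CCND2 window 12 of 12 NIPBL regions overlapped MED1 and 11 of 12 overlapped SMC1A. Peaks of both MED1 libraries overlapped 11 of the 12. The region chr12:4383973-4384498 had no MED1 replicate 1 peak and was counted through the broad MED1 replicate 2 peak. It was also the region without SMC1A, with an SMC1A peak in replicate 2 alone. In the CDK6 window 5 of 10 overlapped MED1, 6 of 10 overlapped SMC1A and 2 of 10 overlapped both. The single region of the CCND3 window had both partners and that of the CDK4 window had MED1 alone. Neighbouring regions of a group are not independent, and up to 6 of them overlapped the same MED1 region at CCND2. The difference between the CCND2 and CDK6 windows was therefore not tested.

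Coverage by single libraries allowed a comparison of MED1 with SMC1A. MED1 replicates 1 and 2 had a peak at 17 and 23 of the 24 NIPBL regions (70.8% and 95.8%), and SMC1A replicates at 19 and 19 (79.2% each). The mean was 83.3 ± 17.7% for MED1 and 79.2 ± 0% for SMC1A (SD, n = 2 libraries each), a difference of 4.17 percentage points that was smaller than the spread between the MED1 replicates. A two-sided exact permutation test over the 4 libraries gave p = 1, and the smallest p this design allows is 0.333. Over all NIPBL regions the values were 69.0% and 93.8% for MED1 and 65.1% and 79.2% for SMC1A. With MED1 replicate 2 left out, the difference was -8.33 points.

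From the side of the partners, 14 of 23 MED1 regions in the windows overlapped NIPBL, beside 49.3% of all MED1 regions, and 13 of 23 overlapped SMC1A, beside 52.2%. Of the 42 SMC1A regions, 17 overlapped NIPBL, beside 14.3% of all SMC1A regions, and 18 overlapped MED1, beside 17.5%. In 21 of 42 neither was found, beside 79.2% of all SMC1A regions. The CCND2 window supplied 10 of the 17 SMC1A regions with NIPBL and 12 of the 18 with MED1.

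NIPBL regions in the windows reached high strength about as often as NIPBL regions in general. Strength above 80 was reached by 6 of 24 NIPBL regions, beside 24.2% of all NIPBL regions, by 8 of 23 MED1 regions, beside 28.9% of all MED1 regions, and by 8 of 42 SMC1A regions, beside 23.9% of all SMC1A regions. Median NIPBL strength was 65.9 in the windows and 59.5 over all NIPBL regions. Median SMC1A strength was 32.6 in the windows and 58.6 over all SMC1A regions, and the CCND2 and CDK6 windows, at 30.7 and 27.8, were the lowest of the 5. MED1 had a median strength of 57.4 in the windows and 65.4 over all MED1 regions, with the CCND2 window at 83.4.

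**Figure D5:**
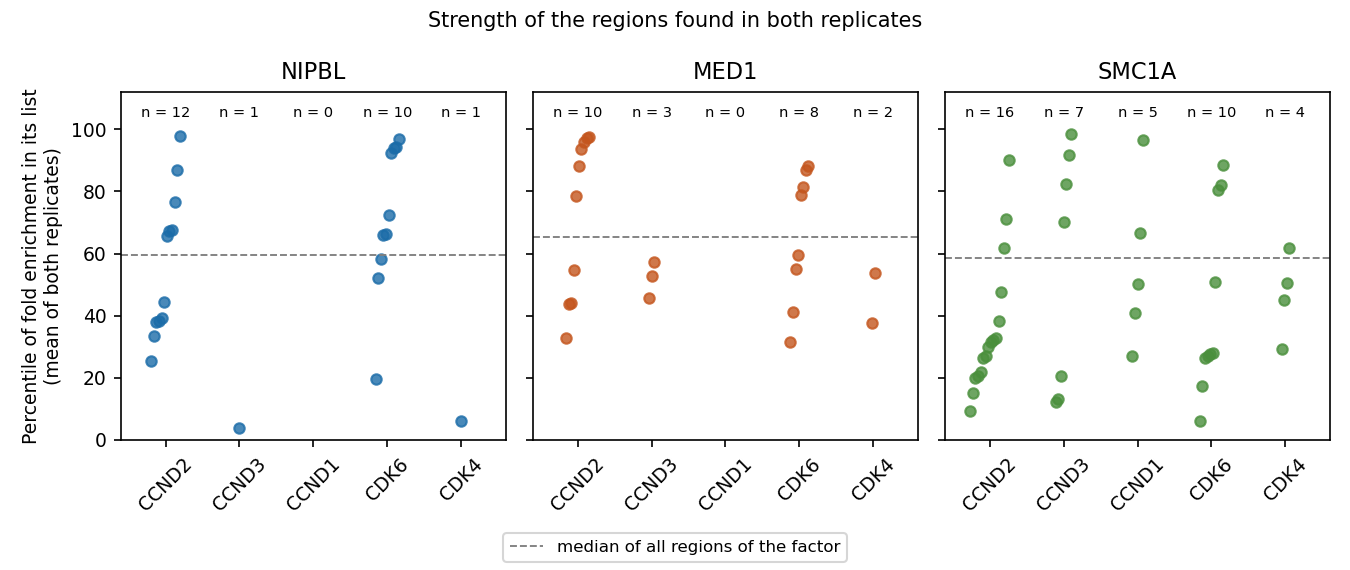
Strength (vertical axis, percentile of fold enrichment within its list, averaged over replicates 1 and 2) of the NIPBL, MED1 and SMC1A regions in each window. Each point is a region, n is their number, and the dashed line is the median over all regions of the protein, at 59.5 for NIPBL, 65.4 for MED1 and 58.6 for SMC1A. The single NIPBL regions at CCND3 and CDK4 lie at 3.95 and 6.16, and the SMC1A points at CCND2 lie mostly under the line.

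SMC1A regions with MED1 had the lower values of fold enrichment in their lists. Median strength was 26.7 at the 18 SMC1A regions with MED1 and 50.5 at the 24 without it. Over all SMC1A regions the medians were 26.8 with MED1 and 64.1 without. All 3 SMC1A regions that overlapped NIPBL but not MED1 lay in the CDK6 window and had a median of 82.2, beside 74.3 over all such regions. At 2 of these 3, MED1 peaks of replicate 2 alone overlapped the region. The order in the windows was that of the data as a whole, and the ranges overlapped widely, from 6.06 to 90.2 with MED1 and from 17.4 to 98.4 without it.

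Distances between summits of overlapping peaks varied. Of 41 NIPBL replicate 1 peaks in the windows, 23 overlapped a MED1 replicate 1 peak, at a median of 46 bp between summits, and 38 a MED1 replicate 2 peak, at a median of 77 bp. SMC1A replicates 1 and 2 overlapped 27 and 29 of them, at medians of 125 and 107 bp. For the 29 NIPBL replicate 2 peaks the medians were 60 and 70.5 bp to MED1 summits and 54 and 58.5 bp to SMC1A summits. No order of MED1 and SMC1A by distance was therefore seen in both NIPBL replicates. Across these pairs of libraries, 48.1% to 75% of the overlapping peaks in the windows had summits within 100 bp. Summits lay far apart under the broad MED1 replicate 2 peak at CCND2, which has a single summit. Over all NIPBL peaks the medians were 51 to 63 bp to MED1 and 70 to 82 bp to SMC1A.

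Replicates of the partners differed in 1 direction at the NIPBL regions of the windows. Fold enrichment of MED1 was higher in replicate 2 at 17 of 17 NIPBL regions with a peak in both MED1 libraries, beside 99.4% of all such NIPBL regions. Fold enrichment of SMC1A was higher in replicate 2 at 18 of 18, beside 78.6% of all such NIPBL regions. SMC1A regions away from NIPBL did not all share the direction, as at chr12:4274026-4274323 with 4.59 and 3.28 fold in replicates 1 and 2. Regions of the right group at CCND2 share a MED1 replicate 2 peak, so the 17 are not separate observations. NIPBL was higher in replicate 1 at 12 of 24. Over those 17 regions MED1 had a median of 4.98 fold in replicate 1 and 12.54 fold in replicate 2, so a MED1 value has meaning within its own list.

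By peak density in the 6 libraries, CCND3 and CCND1 were the most alike of the windows, with a mean absolute difference of 1.67 peaks per 100 kb, followed by CCND3 and CDK6 at 1.72. CCND2 was farthest from its fellow D cyclins, at 5.92 peaks per 100 kb from both CCND1 and CCND3, and nearest to CDK4 at 3.42. The density of the small CDK4 window rests on few peaks, from 1 to 6 per library.

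The edges of the windows passed close to some regions. At CCND3 the left edge ran through an SMC1A region of strength 91.7. The nearest NIPBL region outside the left edge of the CCND2 window lay 4317 bp away with a strength of 87.1, and the outermost inside lay 1766 bp from it with a strength of 65.8. The nearest MED1 region outside that edge lay 3721 bp away with a strength of 96.8. An SMC1A region of strength 81.3 lay 605 bp outside the right edge of the CCND1 window, and the outermost inside lay 1012 bp from it with a strength of 50.3. Around the CCND1 window the nearest NIPBL regions lay 333496 bp to the left and 744640 bp to the right, so its lack of NIPBL regions does not turn on the edges.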

How the data were processed

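ChIP-seq peaks of NIPBL, MED1 and SMC1A in GM12878 cells (2 libraries each) were analysed as deposited. Per the submitters' processing notes, Trimmomatic 0.33, BWA 0.7.12, MACS2 2.1.0 and the build hg19 were used, with options not given in the sources used here. The labels state that the authors used both whole cell extracts, pooled, as the control for every ChIP library, so all lists share a control. The deposited fold enrichment is a ratio of pileup to local control, with 1 added to both. Evidence at each summit is held in deposited columns of −log10 p and −log10 q, and every deposited peak had a q-value under 0.05. The authors' score column was not used.

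Pileup was solved from the deposited fold and p-value and recovered for 99.7% or more of each list to within 0.05 on the −log10 scale. Of 2000 simulated peaks made with the same formulas, 100% were recovered. The lowest pileup called was 7 to 11 fragments, which limits what could be detected.

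Peaks on chromosomes 1 to 22 and X were used, and 1 bp of overlap was enough for peaks to be shared. The regions named were, in each window, the strongest NIPBL, MED1 and SMC1A region and the broadest MED1 region, with the strongest single peak where a window had no region. Other regions were named after their values were seen. Shares have exact Clopper-Pearson 95% intervals. The members and the rule for named regions were chosen with earlier results of these data known. Python 3.11.15, numpy 2.4.6, pandas 2.3.3, scipy 1.17.1 and matplotlib 3.10.9 were used. Alternatives changed the replicate rule, the q threshold, the length of the lists, the window rule, the overlap rule, the ranking and the libraries left in. Replicate numbers come from the labels and nothing there ties the same numbers of different proteins to a shared culture or day.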

Additional observations from a re-analysis of the deposited data

How the results depend on the processing

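Counts and shares over the 5 windows moved with the replicate rule and with the length of the lists. Regions found in either replicate numbered 46 for NIPBL, 58 for MED1 and 74 for SMC1A, and 93.5% of the NIPBL regions then overlapped MED1. With the 15357 top peaks by fold enrichment kept in every list, 8 SMC1A regions were left and 20% of NIPBL regions (4 of 20) overlapped SMC1A. This rule cuts the 2 SMC1A lists hardest, since they are the longest. How much of the drop comes from list length was not tested. The difference in coverage, MED1 minus SMC1A, was 55.0 percentage points under this rule. With summits at most 200 bp apart in place of any overlap, 54.2% of NIPBL regions had MED1, and the difference in coverage was -6.25 points. Leaving out each library in turn gave 24 to 41 NIPBL, 23 to 58 MED1 and 42 to 65 SMC1A regions. For the protein that lost a library, every peak of its remaining replicate then counted as a region. Those counts are thus peaks of a single library and not regions found in both replicates. The same step gave 61.0 to 95.8% of NIPBL regions with MED1, 58.5 to 79.2% with SMC1A and a difference of -8.33 to 16.7 points, negative only without MED1 replicate 2. The fit with the replicate number as a block kept the difference at 4.17 points, with an exact permutation p = 1 and a smallest possible p of 0.5. Neither fit could have passed a threshold of 0.05, so the comparison of the fits says nothing about stability. Without NIPBL replicate 1 and without NIPBL replicate 2 the CDK4 window had 3 and 1 NIPBL regions and the CDK6 window 10 and 20. With −log10 q of at least 5 the CCND3 and CDK4 windows had no NIPBL region, and the CCND2 and CDK6 windows kept 9 and 8. Ranking by −log10 p named another strongest region for SMC1A at CCND3 and CDK6 and for MED1 at CDK6, with strengths of 96.7, 92.5 and 87.3, and left the other 10 in place.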
